A study of Mus musculus with 4 samples.

Results

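Lysyl oxidases and collagen hydroxylases were read out from RNA-seq counts of mouse embryonic stem cells (mESCs) as 10 genes, *Lox*, *Loxl1*, *Loxl2*, *Loxl3*, *Loxl4*, *P4ha1*, *P4ha2*, *Plod1*, *Plod2* and *Plod3*, out of 37620 genes in the count table. The genes were chosen by symbol. *Loxl2* was picked because its counts were higher in MUT_CTCF mESCs, and the other 9 were taken as its relatives and as the enzymes that hydroxylate collagen, so the difference of *Loxl2* between the lines is described here and not tested. There were 2 libraries of WT_CTCF and 2 of MUT_CTCF mESCs, named by genotype WT and MUT in the labels. Both lines carry degradable (AID-tagged) endogenous CTCF that was removed with auxin, and an exogenous CTCF from a vector: wild-type CTCF in WT_CTCF, and CTCF with the T668A change, which cannot be O-GlcNAcylated at that residue, in MUT_CTCF. Both were grown on gelatin in 15% serum with 1000 U/mL LIF and each line is a clone picked for its CTCF level, so that the mutation and the clone cannot be told apart. The methods call the libraries of a line biological replicates, without saying how the cultures were separated.

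Collagen chains are modified in the endoplasmic reticulum before they are secreted. Prolyl 4-hydroxylase, made of an alpha subunit that carries the active site (P4HA1 or P4HA2) and the protein disulfide isomerase P4HB, hydroxylates prolines and so keeps the triple helix stable at body temperature. Lysyl hydroxylases (PLOD1, PLOD2 and PLOD3) hydroxylate lysines, and outside the cell the copper-dependent lysyl oxidases (LOX and LOXL1 to LOXL4) oxidise lysines and hydroxylysines, which starts the cross-links of collagen and elastin. The hydroxylases need iron, oxygen, alpha-ketoglutarate and ascorbate. *P4ha1*, *P4ha2*, *Plod2*, *Lox* and *Loxl2* are known as genes that hypoxia-inducible factor can induce.

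The promoters of *P4ha1* and *P4ha2* are shown because both genes rose in MUT_CTCF mESCs. The RefSeq promoter table (build GRCm38.p6) matched 5 of the 10 genes, *P4ha1*, *P4ha2*, *Plod1*, *Plod3* and *Loxl4*. Each line gives the 250 bases before the annotated start, 5′ to 3′, and capitals mark the core letters of the hypoxia response element, ACGTG or GCGTG, on either strand.
P4ha1 chr10:59323046-59323295 (plus strand): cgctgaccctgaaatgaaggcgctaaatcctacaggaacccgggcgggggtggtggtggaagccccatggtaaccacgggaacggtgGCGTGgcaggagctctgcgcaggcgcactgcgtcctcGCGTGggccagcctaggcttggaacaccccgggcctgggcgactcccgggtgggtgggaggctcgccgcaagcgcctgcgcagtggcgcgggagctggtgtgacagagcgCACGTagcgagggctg
P4ha2 chr11:54100674-54100923 (plus strand): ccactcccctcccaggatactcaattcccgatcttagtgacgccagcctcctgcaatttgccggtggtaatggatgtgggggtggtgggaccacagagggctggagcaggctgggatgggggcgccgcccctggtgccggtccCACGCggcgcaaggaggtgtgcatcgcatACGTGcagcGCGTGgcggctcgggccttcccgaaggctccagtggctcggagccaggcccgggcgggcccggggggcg
Each of these windows held 1 ACGTG and 2 GCGTG on either strand. Of the other windows, *Plod3*, whose counts did not differ beyond their error, held 1 ACGTG and 3 GCGTG, on either strand, and *Plod1* and *Loxl4* held 0 ACGTG and 1 GCGTG. Among 32841 promoter windows of the same length, 16.6% held ACGTG, 28.2% held GCGTG and 38.6% held either, so that a match is common. The matches are letters in a sequence and say nothing here of binding.

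The total count per library lay between 40524694 and 40977464. edgeR's filter on low counts left 16264 genes, and 9 of the 10 members passed it. *Ctcf* had between 18273 and 19233 counts per library and did not differ between the lines (log2 fold change 0.044, adjusted p = 0.499 in edgeR's quasi-likelihood test), with endogenous and exogenous transcripts counted together. Markers of mESCs were present. All 11 pluripotency markers found in the annotation were tested and their summed level lay between 6763 and 6864 CPM (counts per 1000000 TMM-scaled counts of the library) in every library. Of these, *Utf1* (log2 fold change -0.21) and *Dppa5a* (-0.099), whose reads can be shared with related copies, fell and *Sox2* (0.095) rose (adjusted p = 0.00499, 0.0157 and 0.0358 from the same test). By an adjusted p under 0.05, 1.61% of all tested genes fell and 1.56% rose. At an unadjusted p under 0.05, 4 of the 11 were lower and 2 higher, beside 7.65% and 7.61% of all genes. DESeq2 called 2 lower and 1 higher, and edgeR's exact test 1 lower and 0 higher. Fibroblast markers were low, with 7 of 12 genes under 10 counts in every library and *Lum*, *Fap* and *S100a4* at 0, and their sum was 45.8 and 47.2 CPM in WT_CTCF and 46.5 and 52.1 CPM in MUT_CTCF libraries. *Thy1* and *Pdgfrb* held most of that sum, and 0 of 5 tested fibroblast markers passed (1 lower at an unadjusted p under 0.05, and 0 by DESeq2 or edgeR's exact test). Primitive and parietal endoderm markers summed to 608.1 to 609.9 CPM in WT_CTCF and 585.1 to 595.4 CPM in MUT_CTCF libraries, with 0 of 10 tested genes passing (2 higher and 1 lower at an unadjusted p under 0.05, and 0 by DESeq2 or the exact test). *Sparc*, the most counted of these, had 14583 ± 112.6 and 13704 ± 504 normalized counts (SD, n = 2), while *Gata6* had 53.6 ± 4.93 and 103.3 ± 7.33 and *Sox17* had 51.6 ± 7.77 and 87.0 ± 30.5 in WT_CTCF and MUT_CTCF mESCs. In edgeR's quasi-likelihood test their adjusted p were 0.108, 0.0733 and 0.259, and they were named after their values were seen. Neural and mesodermal markers summed to 85.7 to 88.6 CPM in WT_CTCF and 91.4 to 92.6 CPM in MUT_CTCF libraries, with 0 of 8 tested genes passing in edgeR's quasi-likelihood test (0 at an unadjusted p under 0.05 or by DESeq2 or the exact test). The part of these cells in the results below was not tested, and in bulk RNA fewer cells of a type and less RNA per cell cannot be told apart.

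Of the 8 tested members other than *Loxl2*, 2 rose in MUT_CTCF mESCs, *P4ha1* and *P4ha2*, and 0 fell. The criterion was an adjusted p under 0.05, with the adjustment made across the whole table, and by it 1.56% of the 16264 tested genes rose, 1.61% fell and 3.17% passed in either direction. At an unadjusted p under 0.05, 3 of the 8 were higher and 0 lower, against 7.61% and 7.65% of all genes and 15.3% in either direction, and DESeq2 and edgeR's exact test each called 2 higher and 0 lower. In 5 of the 8 the MUT_CTCF libraries were both above the WT_CTCF ones, against 22.3% of all genes, and in 0 of the 8 they were both below, against 22.3%. None of the 8 met the criterion taken from the methods (unadjusted p under 0.05, more than 2-fold), which 0.947% of all genes met as higher and 0.357% as lower. The median log2 fold change was 0.25 over the 9 tested members and 0.22 without *Loxl2*, beside 0.0034 over all genes. The plot of normalized counts by library shows each member at its own level.

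**Figure D1:**
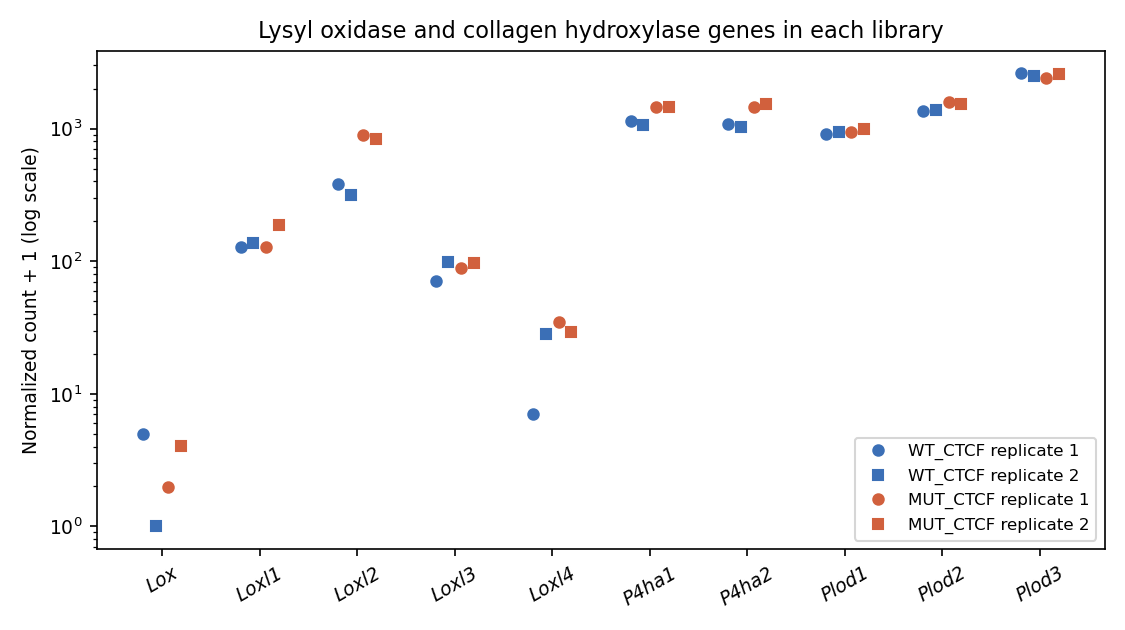
Normalized counts plus 1 (log axis) of the 10 genes in the 2 WT_CTCF and 2 MUT_CTCF libraries, 1 point per library. *Loxl2*, *Loxl4*, *P4ha1*, *P4ha2*, *Plod1* and *Plod2* have both MUT_CTCF points above both WT_CTCF points, *Lox* lies at 0 to 4 counts, and the *Loxl4* point of WT_CTCF replicate 1 lies far below the other 3.

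Among the lysyl oxidases, *Loxl2* (ENSMUSG00000034205, mm9 chromosome 14, 70008978 to 70095640, plus strand) encodes an enzyme that cross-links collagen IV of basement membranes. The WT_CTCF libraries held 384 and 316 counts of it, and the MUT_CTCF libraries 902 and 834. The groups were far apart, with 351 ± 48.0 normalized counts in WT_CTCF and 866 ± 39.8 in MUT_CTCF mESCs (SD, n = 2), a ratio of 2.47 and a log2 fold change of 1.30. This is the difference it was chosen for. None of the 3 other tested lysyl oxidases passed the test, and the intervals of their fold changes were wide, from 0.873 to 1.61 for *Loxl1*, 0.741 to 1.62 for *Loxl3* and 0.799 to 4.35 for *Loxl4*.

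*Loxl1* (ENSMUSG00000032334, chromosome 9, 58135530 to 58161019, minus strand), which acts on elastin, had 126 and 137 counts in WT_CTCF and 128 and 185 counts in MUT_CTCF libraries. The groups overlapped, and the change was 0.25 ± 0.221 in log2 units (standard error; adjusted p = 0.672 in edgeR's quasi-likelihood test). It rested on MUT_CTCF replicate 2 and was -0.056 without that library. *Loxl3* (ENSMUSG00000000693, chromosome 6, 82984167 to 83002556, plus strand), which is needed for cartilage and palate, had 70 and 98 counts in WT_CTCF and 89 and 96 in MUT_CTCF libraries. These groups also overlapped, and the change was 0.13 ± 0.283 in log2 units (standard error; adjusted p = 0.892 in the same test). It became -0.090 without WT_CTCF replicate 1 and 0.40 without WT_CTCF replicate 2. Exons of *Loxl3* share 535 bases, 12.8% of its exon length, with *Htra2* on the other strand. How HTSeq treated strand is not given in the sources used here, so reads of such pairs may be mixed.

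*Loxl4* (ENSMUSG00000025185, chromosome 19, 42668472 to 42687303, minus strand) was low, with 6 and 27 counts in WT_CTCF and 34 and 28 counts in MUT_CTCF libraries. The groups did not overlap, yet WT_CTCF replicate 2 lay within 1 count of a MUT_CTCF library. The log2 fold change, 0.90 ± 0.610 (standard error; adjusted p = 0.533 in edgeR's quasi-likelihood test), did not pass. Leaving out WT_CTCF replicate 1 brought it to 0.19, and leaving out WT_CTCF replicate 2 to 2.34. *Lox* (ENSMUSG00000024529, chromosome 18, 52675723 to 52689521, minus strand), the founding member, had 4 and 0 counts in WT_CTCF and 1 and 3 counts in MUT_CTCF libraries and was left out by the filter. Its pooled ratio of MUT_CTCF to WT_CTCF was 0.996 with an exact 95% counting interval from 0.186 to 5.35, and a library with 0 counts could hold up to 3 by sampling, so a change of *Lox* within that interval was not detectable at this depth. Intervals and limits of this kind cover counting error only.

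Both alpha subunit genes of prolyl 4-hydroxylase among the members rose. *P4ha1* (ENSMUSG00000019916, chromosome 10, 58786044 to 58836052, plus strand) had 1140 and 1055 counts in WT_CTCF and 1477 and 1458 counts in MUT_CTCF libraries. The groups did not overlap, and it rose from 1099.6 ± 59.6 to 1465 ± 0.515 normalized counts (SD, n = 2). On the log2 scale this was 0.41 ± 0.076 (standard error; adjusted p = 0.000297 in edgeR's quasi-likelihood test), with a 95% interval from 1.20-fold to 1.48-fold. *P4ha2* (ENSMUSG00000018906, chromosome 11, 53913597 to 53945167, plus strand) had 1081 and 1026 counts in WT_CTCF and 1476 and 1521 counts in MUT_CTCF libraries. It rose from 1056 ± 38.4 to 1496 ± 46.0 normalized counts (SD, n = 2), and its groups did not overlap either. On the log2 scale this was 0.50 ± 0.076 (standard error; adjusted p = 7.89e-06 in the same test), with a 95% interval from 1.27-fold to 1.58-fold.

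Both rises kept their size but not always their call. Without a filter on low counts, which tests 23739 genes, the adjusted p was 0.110 for *P4ha1* and 0.0566 for *P4ha2*. With MUT_CTCF replicate 1 left out, edgeR's quasi-likelihood test called 0 of 16933 genes in either direction, and 1651 had an unadjusted p under 0.05. With MUT_CTCF replicate 2 left out it called 0 of 16932, and 1585 had an unadjusted p under 0.05. *P4ha1* and *P4ha2* were among these both times, at log2 fold changes of 0.41 and 0.53 in the first case and 0.41 and 0.47 in the second. DESeq2 called neither *P4ha1* nor *P4ha2* when any 1 library was left out, whether of WT_CTCF or of MUT_CTCF. Each such fit leaves 1 library in a group.

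The third alpha subunit gene, *P4ha3* (chromosome 7, 107434030 to 107468209), is not among the 10 members and is named after its values were seen. It had 2 and 1 counts in WT_CTCF and 10 and 12 counts in MUT_CTCF libraries, a pooled ratio of 7.30 with an exact 95% counting interval from 2.19 to 38.1. It did not pass the filter, and without a filter its adjusted p was 0.505 in edgeR's quasi-likelihood test. *P4hb*, whose product is the partner subunit, was named in the same way and had 36587 ± 516 and 36681 ± 268 normalized counts (SD, n = 2) and a log2 fold change of 0.0037 (95% interval -0.045 to 0.052).

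**Figure D2:**
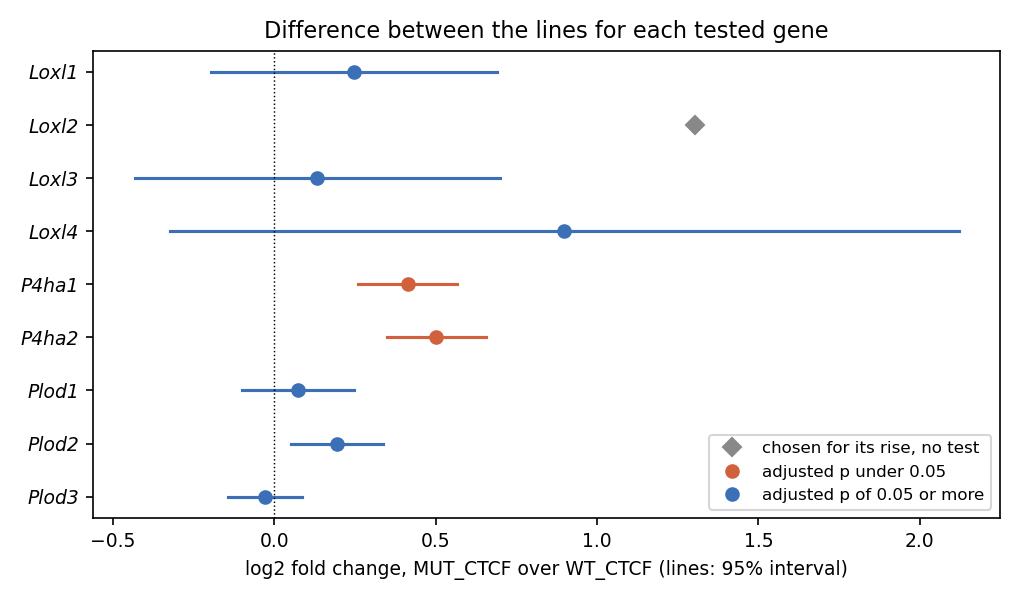
Log2 fold change of MUT_CTCF over WT_CTCF for the 9 tested genes, with 95% intervals from edgeR's quasi-likelihood fit; *Loxl2* (diamond) was chosen for its rise and is drawn without an interval. *P4ha1* at 0.41 and *P4ha2* at 0.50 passed an adjusted p under 0.05, and the interval of *Plod2* lies above 0 before adjustment over all genes.

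None of the 3 lysyl hydroxylases passed the test. *Plod2* (ENSMUSG00000032374, chromosome 9, 92437061 to 92503266, plus strand), which hydroxylates the telopeptide lysines of collagen, had 1360 and 1378 counts in WT_CTCF and 1607 and 1537 counts in MUT_CTCF libraries. The groups did not overlap, with 1372 ± 13.5 and 1569 ± 34.5 normalized counts (SD, n = 2), but the log2 fold change, 0.19 ± 0.071 (standard error), did not pass once adjusted across the table (edgeR's quasi-likelihood test, unadjusted p = 0.00859, adjusted p = 0.138). *Plod1* (ENSMUSG00000019055, chromosome 4, 147283862 to 147310876, minus strand), which acts on lysines of the helix, had 904 and 942 counts in WT_CTCF and 958 and 992 counts in MUT_CTCF libraries. The change was 0.074 ± 0.087 in log2 units (standard error; adjusted p = 0.773 in the same test), with both MUT_CTCF libraries narrowly above both WT_CTCF libraries.

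*Plod3* (ENSMUSG00000004846, chromosome 5, 137462889 to 137472518, plus strand), whose product also adds sugars to hydroxylysine, was the most counted member. It had 2605 and 2476 counts in WT_CTCF and 2438 and 2560 counts in MUT_CTCF libraries. The groups overlapped, and the change was -0.029 ± 0.057 in log2 units (standard error; adjusted p = 0.880 in edgeR's quasi-likelihood test), with a 95% interval from 0.905-fold to 1.06-fold. *Plod3* shares 529 exon bases, 11.7% of its exon length, with *Znhit1* on the other strand, and 9 bases with *Mir702*.

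Levels of different genes can be compared only per length. In counts per kilobase of exon and 1000000 TMM-scaled counts of the library (RPKM), the order in WT_CTCF mESCs was *Plod3* (13.8 ± 0.488), *Plod2* (8.05 ± 0.079), *P4ha1* (6.55 ± 0.355), *P4ha2* (4.15 ± 0.151), *Plod1* (3.35 ± 0.099), *Loxl2* (1.61 ± 0.220), *Loxl1* (0.968 ± 0.058), *Loxl3* (0.492 ± 0.116), *Loxl4* (0.096 ± 0.087) and *Lox* (0.010 ± 0.015; SD, n = 2). Neighbours in this order were apart by more than their SDs except *Loxl4* and *Lox*. In MUT_CTCF mESCs *Plod2* (9.20 ± 0.202) still lay above *P4ha1* (8.73 ± 0.0031), and *Loxl2* at 3.97 ± 0.182 had passed *Plod1* at 3.53 ± 0.120 RPKM. The levels of *P4ha1* and *P4ha2* in RPKM were far below that of *P4hb*, at 313.5 in WT_CTCF and 314.3 in MUT_CTCF mESCs.

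Summed by family, the lysyl oxidases reached 3.16 and 3.19 RPKM in WT_CTCF and 5.75 and 5.95 RPKM in MUT_CTCF libraries. *Loxl2* made up 55.9% and 45.5% of that sum in WT_CTCF and 71.3% and 64.6% in MUT_CTCF libraries. The summed level of the other 4 was 1.57 ± 0.246 and 1.88 ± 0.325 RPKM (SD, n = 2), with overlapping libraries. The 2 alpha subunit genes summed to 11.1 and 10.3 RPKM in WT_CTCF and 14.5 and 14.7 RPKM in MUT_CTCF libraries, while the share of *P4ha1* in that sum was 61.2% ± 0.424 and 59.8% ± 0.731 (SD, n = 2). The 3 lysyl hydroxylases summed to 25.4 and 25.0 RPKM in WT_CTCF and 25.9 and 26.6 RPKM in MUT_CTCF libraries, a ratio of 1.04. With 2 libraries a group, 0.333 is the smallest two-sided p of an exact permutation test, and the sums are therefore given as values.

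**Figure D3:**
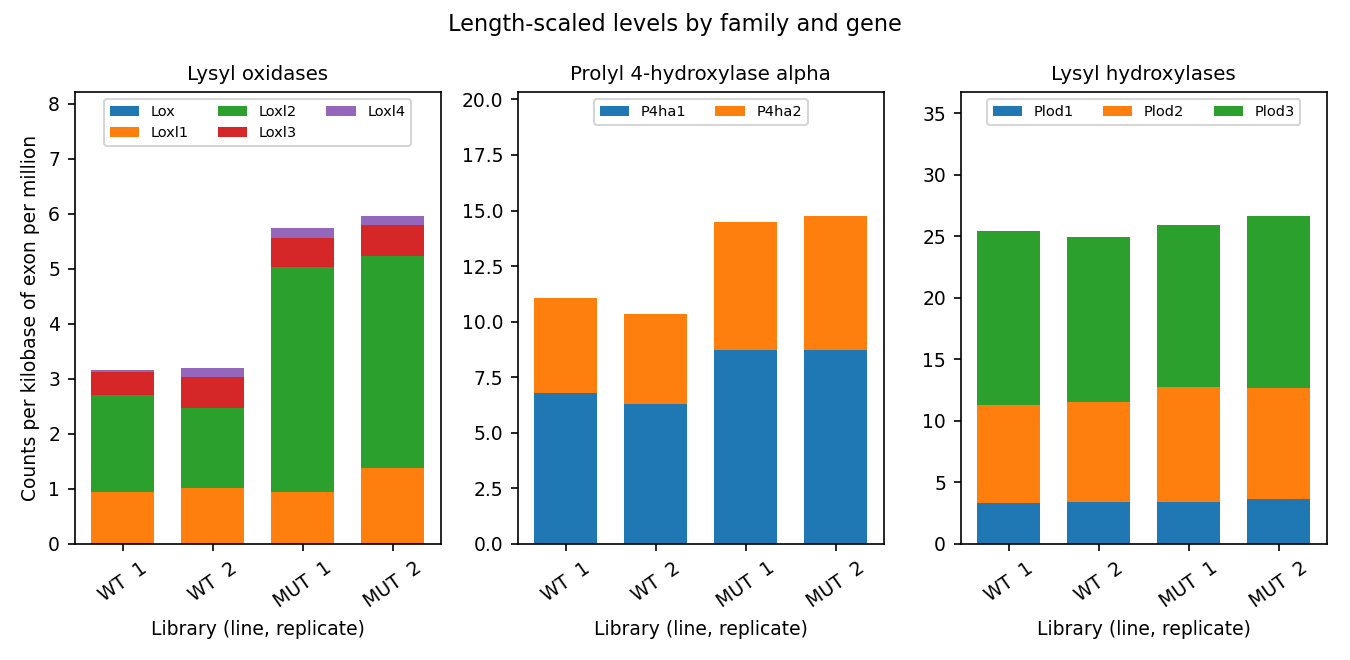
Stacked RPKM (counts per kilobase of exon and 1000000 counts, axes from 0, a separate scale per panel) of each family in each library, 1 bar per library and 1 colour per gene. The lysyl oxidase bars go from 3.16 and 3.19 in WT_CTCF to 5.75 and 5.95 in MUT_CTCF mESCs mainly through *Loxl2*, both alpha subunits are taller in MUT_CTCF, and the lysyl hydroxylase bars stay between 25.0 and 26.6.

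Other genes of the collagen pathway were read from lists written with earlier results of these data known. Of 14 partners of collagen hydroxylation (among them the chaperone gene *Serpinh1* and the prolyl hydroxylases that act at the other position of proline), 12 were tested, 0 passed in either direction and the median log2 fold change was 0.0063. Of 11 proteases that process procollagen or activate lysyl oxidase, 10 were tested and 0 passed, with a median of -0.014. Of 13 substrates of lysyl oxidase and genes of elastic fibre assembly, 11 were tested and 0 passed, with a median of 0.18. Of 12 cross-linked collagen chains, 12 were tested and 0 passed, with a median of 0.036. In the order given, 8, 5, 9 and 7 of the tested genes had a log2 fold change above 0, beside 50.8% of all genes. The counts of 0 passing genes are from edgeR's quasi-likelihood test at an adjusted p under 0.05. At an unadjusted p under 0.05 the 4 lists had 1, 0, 2 and 0 higher and 0, 2, 1 and 2 lower genes in the order given, beside 7.61% higher and 7.65% lower among all genes, and DESeq2 and edgeR's exact test called 0 in each.

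Of 10 genes that supply copper, ascorbate or iron, 10 were tested, 0 fell (1.61% of all genes did) and 1 rose (1.56% did), *Slc31a1*, the copper importer CTR1. It went from 1855 ± 91.8 to 2176 ± 223 normalized counts (SD, n = 2). Its log2 fold change of 0.23 ± 0.066 (standard error) had an adjusted p = 0.0358 in edgeR's quasi-likelihood test, and it was called by edgeR's exact test but not by DESeq2. The median of that list was 0.019. At an unadjusted p under 0.05 it had 2 higher and 1 lower genes, beside 7.61% and 7.65% of all genes. Of 22 hypoxia-induced genes outside the members, a list that is for the same reason no independent evidence of its direction, 16 rose, 0 fell and the median was 0.36. At an unadjusted p under 0.05, 16 of the 22 were higher and 1 lower, beside the same shares of all genes, and DESeq2 called 15 higher and 0 lower. *Slc16a3*, a lactate exporter (log2 fold change 1.03), *Bnip3*, a mitophagy receptor (1.60), and *Tpi1*, a glycolytic enzyme (0.47), had the smallest p of the list, with adjusted p of 1.58e-19, 1.71e-16 and 2.05e-15 in the same test. *Slc16a3* shares 831 exon bases with *Csnk1d* and *Tpi1* shares 34 with *Spsb2*, both on the other strand.

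**Figure D4:**
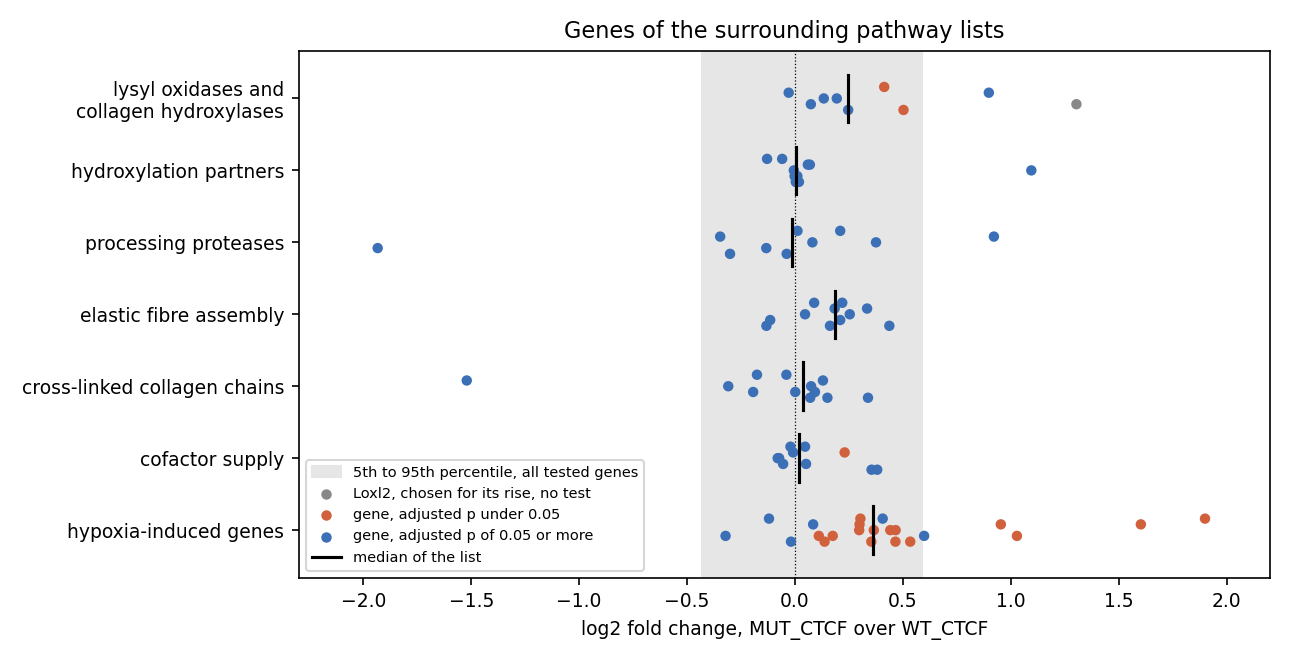
Log2 fold changes of the tested genes of each list, 1 point per gene, with the median of the list as a black bar and the 5th to 95th percentile of all tested genes (-0.43 to 0.59) shaded. The hydroxylation partners, proteases, elastic fibre genes and collagen chains hold 0 called genes, the cofactor list holds 1 and the hypoxia-induced list 16.

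The fold changes of the members were recomputed with other tools, scalings, filters and libraries. *P4ha1* ran from 0.36 to 0.47, *P4ha2* from 0.47 to 0.54, *Plod2* from 0.17 to 0.21 and *Loxl2* from 1.17 to 1.45 on the log2 scale, without a change of sign. *Loxl4* ran from 0.19 to 2.34, and *Loxl1*, *Loxl3* and *Plod3* changed sign when a single library was left out.

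**Figure D5:**
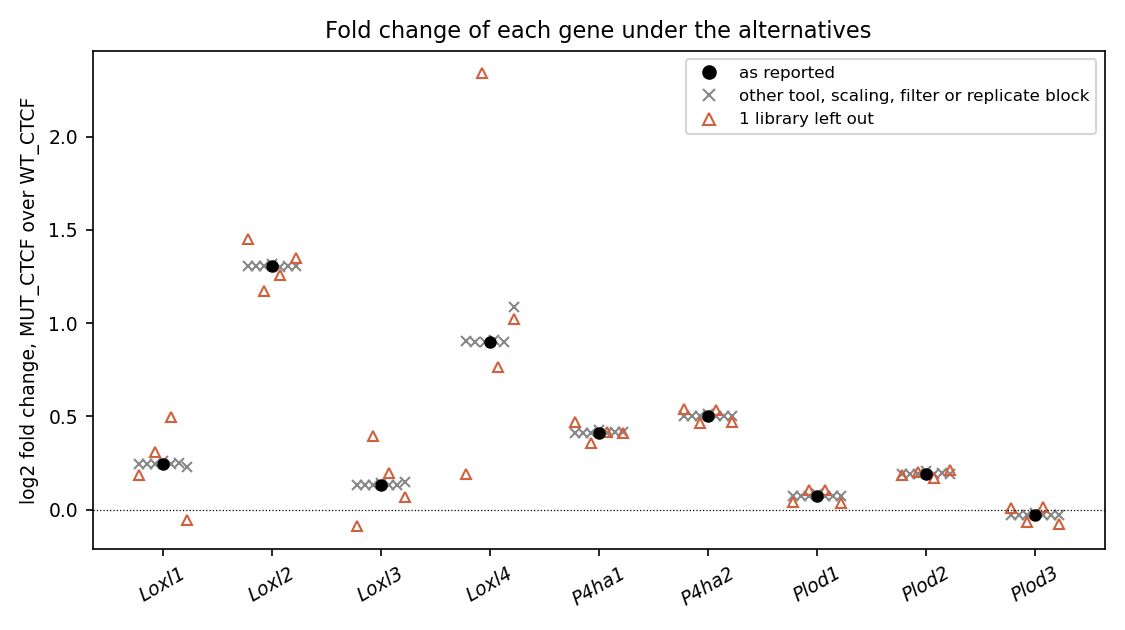
Log2 fold change of MUT_CTCF over WT_CTCF for the 9 tested genes as reported (black), under other tools, scalings, filters and the replicate block (grey crosses) and with 1 library left out (open triangles). The points of *P4ha1*, *P4ha2*, *Plod1* and *Plod2* lie close together, and those of *Loxl4* spread from 0.19 to 2.34.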

How the data were processed

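RNA-seq of 2 WT_CTCF and 2 MUT_CTCF mESC libraries was used. The authors trimmed reads with Trim Galore 0.4.4, aligned them to mm9 with STAR, counted uniquely mapped reads per gene with HTSeq 0.9.1 and deposited the raw counts. A second deposited table holds the authors' own edgeR comparison and was not used. Symbols, positions and exon lengths came from GENCODE M1 (NCBIM37, which is mm9) and named 37205 of 37620 identifiers. Genes were filtered by filterByExpr (minimum count 10), scaled by TMM and tested with glmQLFit and glmQLFTest of edgeR 4.0.16 (R 4.3.3) with the line as the only term and p-values adjusted by Benjamini-Hochberg across the table. Normalized counts are scaled to the mean library, and RPKM uses merged exons. DESeq2 1.42.0 was an alternative. The fit was tested on simulated data with a single spread for all genes. Changes were simulated only in well-counted genes, so low ones such as *Loxl4* were not covered. The members and lists were chosen with earlier results of these data known. Named genes are all members, plus up to 3 called genes of each list with the smallest p. Further genes were named outside that rule, some of them after their values were seen. Among 45 pairs of members, 1 pair shared a 30-base stretch of its transcripts and 0 shared a 50-base stretch. With 2 libraries per group, the precision rests on a spread shared across genes.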

Additional observations from a re-analysis of the deposited data

How the results depend on the processing

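Calls, more than sizes, depended on the processing, and the cause was not tested beyond what each alternative changes by construction. Of the 8 members other than *Loxl2*, 2 rose as reported, 0 without a filter and 0 to 2 with 1 library left out. By the fold criterion 0 rose, or 0 to 1 with 1 library left out, *Loxl4* being the 1 without WT_CTCF replicate 2. The median log2 fold change of the 9 tested members, with *Loxl2* included, was 0.19 to 0.41 with 1 library left out. Over all genes, 253 rose and 262 fell as reported, 141 and 161 by DESeq2, 26 and 3 without a filter, and 0 to 140 and 0 to 102 with 1 library left out. Scaling by library size alone left 152 lower genes, so that 63.1% of calls were higher beside 49.1% as reported. By the fold criterion, 154 rose and 58 fell, 96 and 30 by DESeq2, 82 and 35 with at least 10 reads in every library, and 283 and 106 at a 1.5-fold limit, and 102 to 234 rose with 1 library left out.

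Of the cofactor genes 1 rose, 0 by DESeq2, 0 without a filter and 0 to 1 with 1 library left out. Of the hypoxia-induced genes 16 rose, 9 without a filter and 0 to 16 with 1 library left out (0 without either MUT_CTCF library), and 1 fell with at least 10 reads in every library. Of the pluripotency markers 1 rose and 2 fell, 0 and 1 by edgeR's exact test, 0 and 0 without a filter, and 0 and 0 to 1 with 1 library left out. With 1 library left out, log2 fold changes ran from -0.056 to 0.50 for *Loxl1*, from -0.090 to 0.40 for *Loxl3* and from -0.076 to 0.015 for *Plod3*, which was 0.0069 without WT_CTCF replicate 1. A lone library was assumed to vary like the other group.

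Replicate numbers did not pair the libraries (correlation of deviations -0.020). With the replicate block, 326 genes rose and 372 fell, and 2 members other than *Loxl2* rose. The median of the 9 tested members, with *Loxl2* included, was then 0.23, 2 pluripotency markers rose and 1 hypoxia-induced gene fell. Depth limits *Lox* and *Loxl4* most.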

Other observations

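The genes beside each member were read out as well, since neighbouring genes can share chromatin structure. The nearest 3 tested genes on either side of the 9 tested members made 54 genes, at most 2854 kb from their member. Of these, 0 had an adjusted p under 0.05 in edgeR's quasi-likelihood test, beside 3.17% of all genes. At an unadjusted p under 0.05, 4 were higher and 2 lower, beside 7.61% and 7.65% of all genes. DESeq2 and edgeR's exact test also called 0. The median log2 fold change of the neighbours was 0.0077, with 28 of 54 above 0. Around *Loxl2*, *Entpd4* (0.091), *Slc25a37* (0.096), *R3hcc1* (0.049), *Chmp7* (-0.071) and *Gm16867* (-0.14) had log2 fold changes near 0, none with an adjusted p under 0.05 in the same test. Around *P4ha1* and *P4ha2* the log2 fold changes of the 12 neighbours lay between -0.16 and 0.71, none with an adjusted p under 0.05. These genes were named after their values were seen.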
